A study of Caenorhabditis elegans with 8 samples.

Results

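The genes described here encode 10 Caenorhabditis elegans enzymes that make or break down ceramide and sphingomyelin. They were chosen by name, from the symbols of the array's platform annotation, as the acid ceramidase gene asah-1, the acid sphingomyelinase genes asm-1, asm-2 and asm-3, the serine palmitoyltransferase subunit gene sptl-1, the ceramide synthase genes hyl-1, hyl-2 and lagr-1, and the ceramide glucosyltransferase genes cgt-1 and cgt-3. All 10 were measured, each by a single probe set, among 17118 genes that had a probe set with 1 symbol. Transcript levels came from 8 Affymetrix arrays of whole adult worms of the laboratory strain N2 on day 4 of adulthood. The series title asks how cholesterol bears on the FOXO factor DAF-16 and on the longevity that fasting brings.

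The 4 groups, each of 2 arrays described as independent replicates, were fed worms given cholesterol, fasted worms given cholesterol, fed worms deprived of cholesterol and fasted worms deprived of cholesterol. Deprivation ran from hatching, and this nematode cannot make sterols itself. Every group was kept on FUDR, an inhibitor of DNA synthesis that prevents offspring, from young adulthood on. Fasting lasted 48 h from day 2 of adulthood by the treatment protocol but 24 h by the source names, and no duration is assumed here. Because RNA came from whole animals, fewer cells of a type and less RNA per cell cannot be told apart in any value below.

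Sphingolipids are membrane lipids built on a sphingoid base. Serine palmitoyltransferase makes the base from serine and an acyl-CoA, ceramide synthases attach a fatty acid to give ceramide, and ceramide is then turned into sphingomyelin or glucosylceramide. In the reverse direction, sphingomyelinases release ceramide from sphingomyelin and ceramidases split ceramide into a fatty acid and a base, the acid forms working mostly in lysosomes or after secretion. In C. elegans the base is branched and its precursor is a monomethyl branched-chain fatty acid, ceramide synthase mutants differ in their resistance to lack of oxygen, and loss of asm-3 has been linked to longer life and to DAF-16. Sphingomyelin packs with sterols in animal membranes.

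Of the 10 genes, asah-1, asm-2 and asm-3, all for breakdown enzymes, passed in some contrast. The acid ceramidase gene asah-1 and the sphingomyelinase gene asm-2 were both lowest in fasted deprived worms. There asah-1 was 9.59-fold lower than in fed deprived worms and 6.08-fold lower than in fasted worms given cholesterol. The asm-2 values were 3.46-fold and 5.76-fold lower, from signals near the bottom of the scale, and neither asm-2 call held with a pseudocount of 16. Neither the asah-1 nor the asm-2 call against fasted worms given cholesterol held in a fit of the fasted groups alone. The sphingomyelinase gene asm-3 was 2.11-fold lower in deprived than in undeprived worms when both feeding states were averaged. Its signals in deprived worms were also near the bottom of the scale, and this call too did not hold with a pseudocount of 16. None of the synthesis and glucosylation genes, and not asm-1, passed the threshold in any of 7 contrasts of the limma fit, although the ceramide synthase gene hyl-1 fell on average with fasting when the replicate number was a block (limma adjusted p = 0.0121) or with cyclic loess (limma adjusted p = 0.041). Breakdown was not tested against synthesis. Folds are on the log2(signal + 1) scale, "rose" and "fell" stand for a Benjamini-Hochberg adjusted p under 0.05 over all 22548 probe sets of the limma fit, and the ± beside a change is its standard error in that fit (n = 2 per group).

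Read as counts, 2 of the 10 genes fell and 0 rose on fasting of deprived worms, where 2.91% of all probe sets were called (1.92% as lower), and the median change of the 10 was -0.14 against -0.02 for all probe sets. With deprivation of fasted worms 2 fell and 0 rose, where 1.10% were called and 0.417% were lower (medians 0.03 and -0.05). In fasting of worms given cholesterol 0 of 10 passed in the limma fit (2 at an unadjusted p under 0.05, sptl-1 and hyl-1), where 5.16% of probe sets were called, and the medians were -0.25 and 0.08. With deprivation of fed worms 0 passed (3 at an unadjusted p under 0.05, asm-2, asm-3 and cgt-1), where 1.21% were called. For the interaction 0 passed (2 at an unadjusted p under 0.05, asah-1 and asm-2), where 0.0976% were called. In the averages over 4 against 4 arrays, 2 fell with fasting, where 10.6% of probe sets were called and 5.14% were lower, and 3 fell with deprivation, where 4.10% were called and 2.08% were lower. In those averages the arrays of both sides did not overlap for 2 genes on fasting, sptl-1 and hyl-1, against 12.9% of all probe sets, and for 3 on deprivation, asm-2, asm-3 and lagr-1, against 6.04%. With 10 genes, 2 calls against 10.6% on average fasting are not a result about the group. The 10 genes were chosen with earlier results of these data known, so none of the counts here tests the group.

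**Figure D1:**
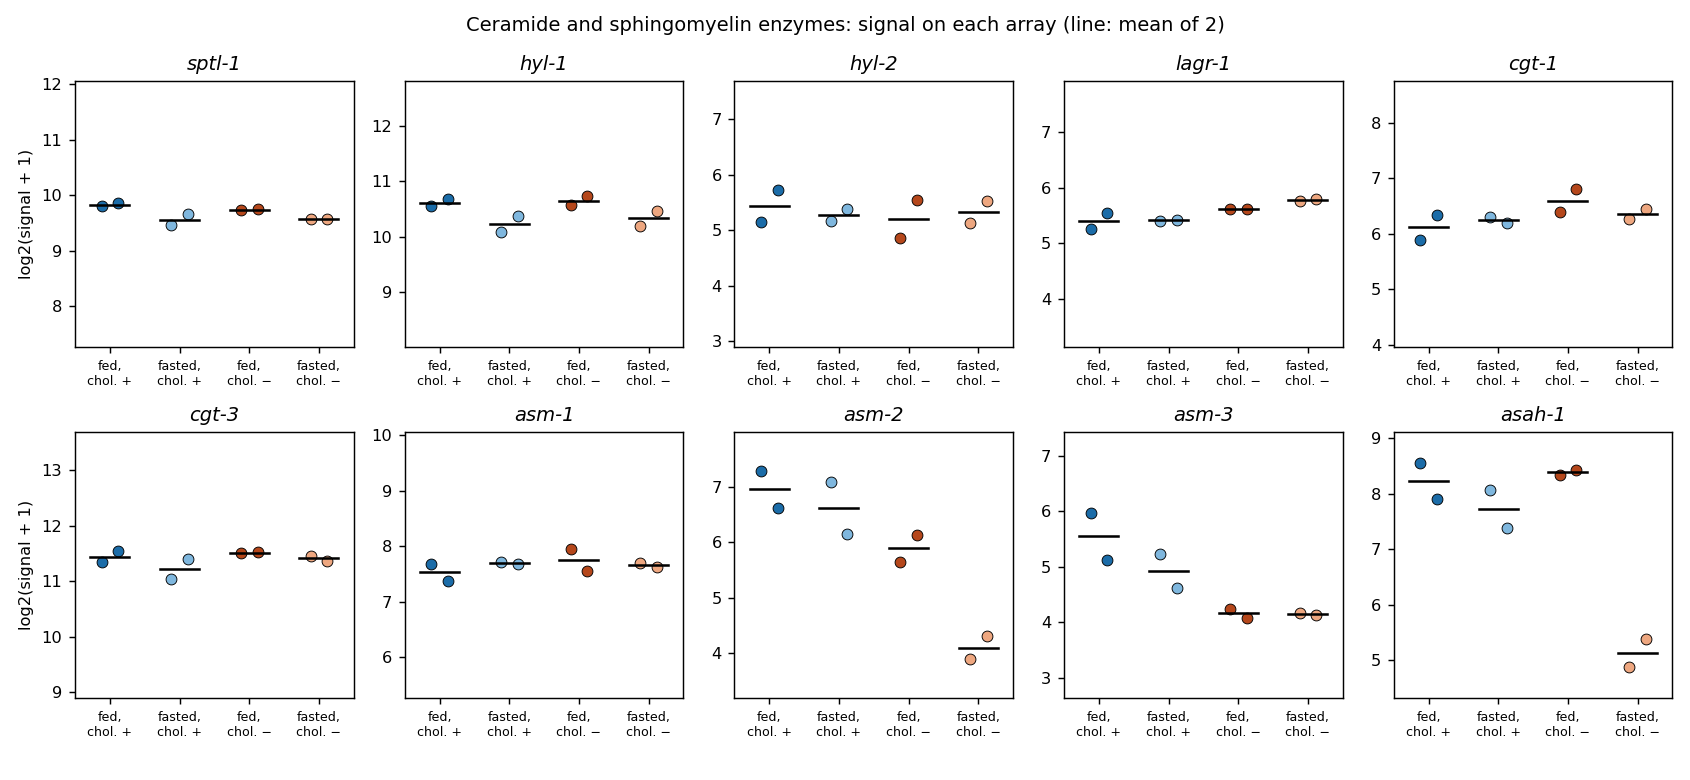
Signal of the 10 genes on each of the 8 arrays, as log2(signal + 1), with 1 panel per gene, every vertical axis spanning the same number of log2 units, 2 points per group (the arrays) and a line at their mean. The asah-1 and asm-2 panels drop in fasted deprived worms, to means of 5.12 and 4.10, asm-3 is low in both deprived groups, at 4.16 and 4.15, and the remaining panels stay within 0.48 log2 units between the highest and the lowest group mean.

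The acid ceramidase gene asah-1 (K11D2.2) splits ceramide at acid pH. Its intensity was 375 and 239 in fed worms given cholesterol, 268 and 166 in fasted worms given cholesterol, 323 and 345 in fed deprived worms, and 28.2 and 40.6 in fasted deprived worms. Both fasted deprived arrays lay below all 6 others, and the other 3 groups overlapped one another except that the fasted undeprived arrays were below the fed deprived ones. Fasting of deprived worms lowered asah-1 by 3.26 on the log2 scale (-3.26 ± 0.30, adjusted p = 0.00161), a call that held without each of the 8 arrays in turn. Fasting of worms given cholesterol changed it by -0.50 ± 0.30 (adjusted p = 0.337), which did not pass.

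Deprivation lowered asah-1 in fasted worms (-2.60 ± 0.30, adjusted p = 0.0103), while in fed worms the value was 0.15 ± 0.30 (adjusted p = 0.866). The call in fasted worms was lost without the first fasted array given cholesterol or the first fasted deprived array, with limma adjusted p values of 0.0649 to 0.0709, and in a fit of the 2 fasted groups alone (limma adjusted p = 0.0558), and the change stayed between -2.95 and -2.26 over the 8 fits without an array. The contrasts that called asah-1, the averages below included, share the fasted deprived arrays, so they are not separate evidence. The difference between the fasting effects, the interaction, was -2.76 ± 0.42 with a 95% interval of -3.74 to -1.78. It did not pass over all probe sets (limma adjusted p = 0.13), but with the replicate number as a block it did (limma adjusted p = 0.0308), as with trended robust priors (limma adjusted p = 0.0325). Averaged over the other factor, asah-1 fell with fasting (-1.88 ± 0.21, adjusted p = 0.00199) and with deprivation (-1.22 ± 0.21, adjusted p = 0.0244), although in both averages the 4 arrays of a side overlapped the 4 of the other. The second call was lost without any of 5 arrays, which were the first fed and the first fasted array given cholesterol, both fed deprived arrays and the first fasted deprived array (limma adjusted p = 0.0715 to 0.0834), and with a pseudocount of 16 (limma adjusted p = 0.062).

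The asm-2 gene (ZK455.4) encodes an acid sphingomyelinase. Its intensity was 155 and 97.1 in fed worms given cholesterol, 135 and 70.2 in fasted worms given cholesterol, 48.8 and 69.3 in fed deprived worms, and 13.8 and 18.8 in fasted deprived worms. All 4 undeprived arrays were above all 4 deprived arrays, and the fasted deprived arrays were the lowest. Both undeprived groups overlapped, and the fasted undeprived array at 70.2 was barely above the fed deprived array at 69.3. Both fasted deprived arrays were in the dimmest part of the data, under a log2 value of 4.69, the lower quartile of all values. There the pseudocount and background can compress changes.

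Averaged over feeding, asm-2 fell with deprivation by 1.79 on the log2 scale (-1.79 ± 0.25, adjusted p = 0.0128), and this call was lost without the first fed array given cholesterol (limma adjusted p = 0.0545) and held without each of the other 7. In fasted worms deprivation lowered it (-2.52 ± 0.36, adjusted p = 0.0248), and in fed worms the value was -1.06 ± 0.36 (adjusted p = 0.248). The call in fasted worms was lost without the first fasted array given cholesterol and without either fasted deprived array (limma adjusted p = 0.0655 to 0.135), and in a fit of the 2 fasted groups alone (limma adjusted p = 0.0883). Fasting lowered asm-2 in deprived worms (-1.79 ± 0.36, adjusted p = 0.0467), close to the threshold, and changed it by -0.33 ± 0.36 (adjusted p = 0.608) in worms given cholesterol. The deprived-worm fasting call was lost without any of 6 arrays, both fed undeprived, both fed deprived and both fasted deprived ones (limma adjusted p = 0.0619 to 0.253), and with cyclic loess (limma adjusted p = 0.0561). The average fasting effect (-1.06 ± 0.25, adjusted p = 0.0401) was lost without any array other than the first fasted one given cholesterol (limma adjusted p = 0.0565 to 0.129). The difference between the fasting effects was -1.46 ± 0.50 (adjusted p = 0.45), which did not pass. With a pseudocount of 16 the asm-2 calls in deprived worms on fasting, in fasted worms on deprivation and for the average fasting effect did not pass (limma adjusted p = 0.147, 0.0936 and 0.105), and the changes were -1.21, -1.83 and -0.75.

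The asm-3 gene (W03G1.7) encodes another acid sphingomyelinase. Its intensity was 61.9 and 33.9 in fed worms given cholesterol, 36.5 and 23.5 in fasted worms given cholesterol, 17.9 and 15.9 in fed deprived worms, and 17.0 and 16.5 in fasted deprived worms. All 4 deprived arrays lay below all 4 undeprived ones, within a narrow band, and these 4 and 1 fasted undeprived array were under that same 4.69. Averaged over feeding, asm-3 fell with deprivation (-1.08 ± 0.21, adjusted p = 0.0351). This call was lost without any of 6 arrays, which were every array but the second fed and the second fasted one given cholesterol (limma adjusted p = 0.0745 to 0.116), and with a pseudocount of 16 (limma adjusted p = 0.0895).

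In fed worms asm-3 changed by -1.39 ± 0.29 with deprivation (limma adjusted p = 0.0849), and with the replicate number as a block this passed (limma adjusted p = 0.0079), as with trended robust priors (limma adjusted p = 0.0259). In fasted worms the value was -0.77 ± 0.29 (adjusted p = 0.311). Fasting changed asm-3 by -0.63 ± 0.29 with cholesterol (adjusted p = 0.241) and by -0.01 ± 0.29 without it (adjusted p = 0.995), and the interaction was 0.62 ± 0.41 (adjusted p = 0.613). The probe sets of asm-2 and asm-3 have names ending in _s_at, which marks sets whose probes can match more than 1 transcript.

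The third sphingomyelinase gene, asm-1 (B0252.2), passed in none of the 7 contrasts. Its intensity was 205 and 165 in fed worms given cholesterol, 210 and 203 in fasted worms given cholesterol, 245 and 188 in fed deprived worms, and 206 and 195 in fasted deprived worms. All 4 groups overlapped one another. Its changes lay between -0.09 and 0.22 in the 4 simple contrasts. The 95% interval of its deprivation effect in fasted worms, -0.41 to 0.33, did not reach the values of asm-2 or asm-3 in that contrast, though differences between the 3 genes were not tested.

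**Figure D2:**
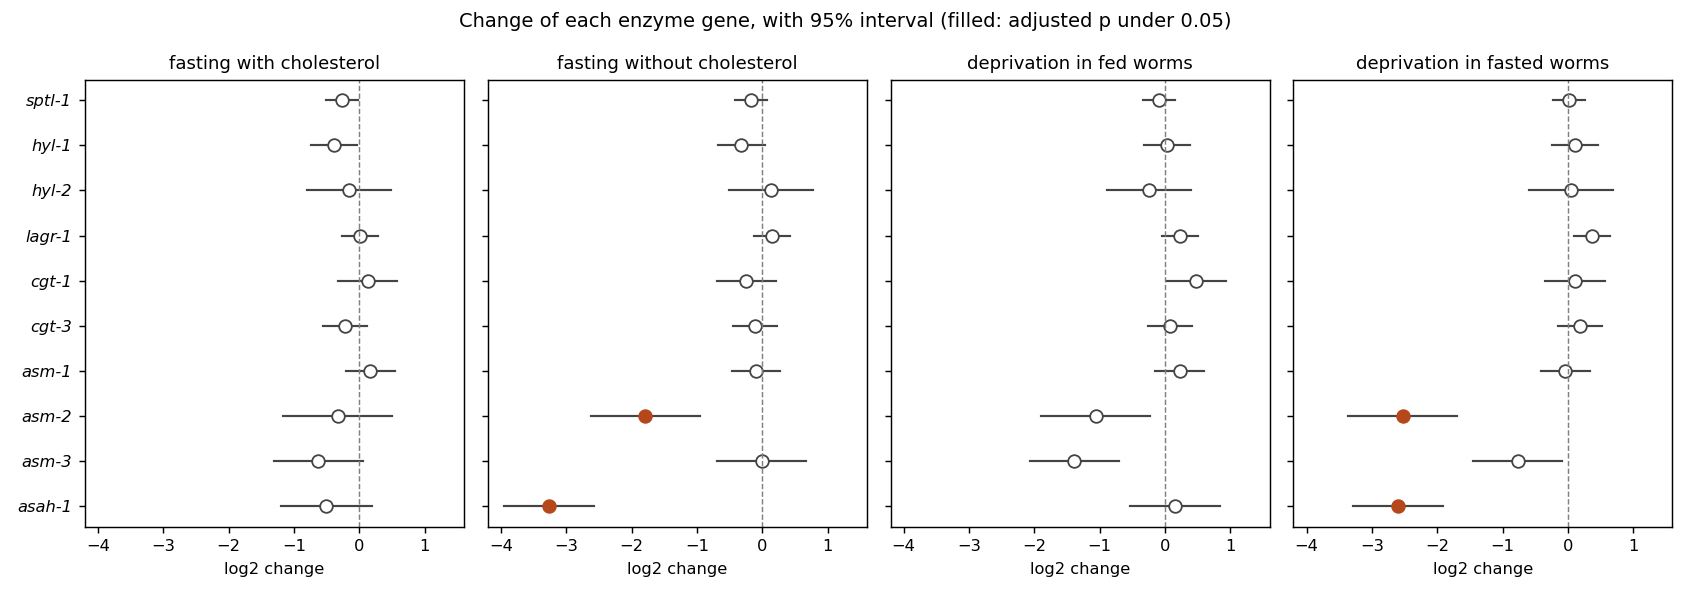
Log2 change of the 10 genes in the 4 simple contrasts (fasted minus fed, or deprived minus given cholesterol), as a point with its 95% interval from the limma fit, filled where the adjusted p is under 0.05. The filled points are asm-2 and asah-1 in fasting without cholesterol (-1.79 and -3.26) and in deprivation of fasted worms (-2.52 and -2.60).

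Serine palmitoyltransferase makes the sphingoid base, and its subunit gene sptl-1 (C23H3.4) was bright on every array. Its intensity was 900 and 925 in fed worms given cholesterol, 707 and 807 in fasted worms given cholesterol, 847 and 866 in fed deprived worms, and 760 and 762 in fasted deprived worms. All 4 fasted arrays lay below all 4 fed arrays. The average fasting effect was nonetheless small and did not pass (-0.22 ± 0.07, adjusted p = 0.111), and the average deprivation effect was -0.04 ± 0.07 (adjusted p = 0.89), with a 95% interval of -0.21 to 0.13.

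The ceramide synthase gene hyl-1 (C09G4.1) followed the same order of feeding states. Its intensity was 1500 and 1646 in fed worms given cholesterol, 1082 and 1334 in fasted worms given cholesterol, 1516 and 1709 in fed deprived worms, and 1174 and 1420 in fasted deprived worms. All 4 fasted arrays were below all 4 fed ones, and the second array of a group was the higher in each of the 4 groups. The average fasting effect was -0.35 ± 0.11 (limma adjusted p = 0.0847), which did not pass, but with the replicate number as a block it did (limma adjusted p = 0.0121), as it did with cyclic loess (limma adjusted p = 0.041). For fasting with cholesterol the change of -0.39 ± 0.15 had a limma adjusted p = 0.179, and 0.0428 with the replicate block; for fasting without cholesterol it was -0.32 ± 0.15 (adjusted p = 0.375). Deprivation gave 0.03 ± 0.15 in fed worms and 0.10 ± 0.15 in fasted worms.

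The other ceramide synthase genes were dim. The intensity of hyl-2 (K02G10.6) was 34.6 and 51.9 in fed worms given cholesterol, 35.1 and 40.8 in fasted worms given cholesterol, 27.9 and 45.5 in fed deprived worms, and 34.1 and 44.9 in fasted deprived worms. Every group overlapped every other, the second array was the higher in all 4, and the changes lay between -0.24 and 0.13 with standard errors of 0.27. The intensity of lagr-1 (Y6B3B.10) was 37.1 and 45.5 in fed worms given cholesterol, 41.4 and 41.7 in fasted worms given cholesterol, 48.2 and 48.4 in fed deprived worms, and 53.3 and 54.5 in fasted deprived worms. All 4 deprived arrays of lagr-1 were above all 4 undeprived ones, the reverse of asm-2 and asm-3, but the average deprivation effect of 0.30 ± 0.08 did not pass (adjusted p = 0.116).

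The ceramide glucosyltransferases make glucosylceramide, which the worm needs for growth. For cgt-1 (T06C12.10) the intensity was 58.4 and 80.1 in fed worms given cholesterol, 77.3 and 72.5 in fasted worms given cholesterol, 82.5 and 111 in fed deprived worms, and 75.4 and 86.6 in fasted deprived worms. Both fed deprived arrays were above both fed undeprived arrays, the first by a small margin, and the change of 0.48 ± 0.19 did not pass (adjusted p = 0.337). For cgt-3 (F59G1.1) the intensity was 2593 and 2981 in fed worms given cholesterol, 2095 and 2712 in fasted worms given cholesterol, 2901 and 2952 in fed deprived worms, and 2795 and 2648 in fasted deprived worms. The groups of cgt-3 overlapped, except that both fed deprived arrays were above all 4 fasted arrays, and its changes in the simple contrasts ran from -0.22 to 0.19 with standard errors of 0.14.

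Among the 10 genes, the profiles of asah-1 and asm-2 over the 8 arrays had Pearson r = 0.892, those of asm-2 and asm-3 r = 0.781, those of sptl-1 and hyl-1 r = 0.877, and those of asm-2 and lagr-1 r = -0.899. These are descriptions over 8 arrays that share the 4 group means. The lowest r of any pair was that of asm-1 and hyl-2, -0.939. In that pair no contrast passed for either gene, and the second array of each group was the lower for asm-1 and the higher for hyl-2 in all 4 groups.

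The wider pathway was described by a list of 32 other sphingolipid genes, in which the sterol transport genes ncr-1 and ncr-2 were included. Of these, 27 had a probe set with 1 symbol, and 12, ncr-1 and ncr-2 among them, passed in at least 1 contrast. That count pools 7 contrasts and has no share of all probe sets beside it. It is not a result about the list. With deprivation, 1 rose and 0 fell in fed worms, where 1.21% of all probe sets were called, 1 rose and 0 fell in fasted worms (1.10% called), and over the average of both 2 rose and 3 fell (4.10% called). With fasting, 0 rose and 2 fell in worms given cholesterol (5.16% called), 1 rose and 2 fell in deprived worms (2.91% called), and over the average 4 rose and 5 fell (10.6% called). For the interaction 0 passed in the limma fit (4 at an unadjusted p under 0.05), where 0.0976% were called. For fasting with cholesterol, 2 of 27 is near the background share. Median changes of the 27 genes lay between -0.07 and 0.09 in the 7 contrasts, and those of all probe sets between -0.06 and 0.08.

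At the entry step, sptl-2, a gene for another serine palmitoyltransferase subunit, rose with deprivation. Its intensity was 86.0 and 106 in fed worms given cholesterol, 72.5 and 76.9 in fasted worms given cholesterol, 190 and 200 in fed deprived worms, and 150 and 134 in fasted deprived worms. All 4 deprived arrays were above all 4 undeprived ones, and the average deprivation effect was 0.97 ± 0.09 (adjusted p = 0.00295), a call that held without each array in turn. In fed worms the rise was 1.02 ± 0.13 (adjusted p = 0.0181) and in fasted worms 0.92 ± 0.13 (adjusted p = 0.0253). The first was lost without the first fed array given cholesterol or either fed deprived array (limma adjusted p = 0.0849 to 0.133), and the second without any array but the 2 fed ones given cholesterol (limma adjusted p = 0.0616 to 0.179). In fits of the 2 groups alone neither passed (limma adjusted p = 0.0538 and 0.0941). The average fall of sptl-2 with fasting was -0.40 ± 0.09 (adjusted p = 0.0355), lost without any array but the first fed one given cholesterol and the first fasted deprived one (limma adjusted p = 0.0718 to 0.12), and also after the bright-set shift and with trended robust priors (limma adjusted p up to 0.0633). For sptl-1 in the same worms, the deprivation values of -0.09 ± 0.10 and 0.01 ± 0.10 stand beside these, and the difference between both subunits was not tested.

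The genes acs-1, elo-5 and elo-6 take part in branched-chain fatty acid supply for the sphingoid base. Of these, acs-1 passed on fasting, and elo-5 and elo-6 on average deprivation. The let-767 gene, also in the list, rose on average fasting and is given below. The acyl-CoA synthetase gene acs-1 had an intensity of 1186 and 1239 in fed worms given cholesterol, 262 and 262 in fasted worms given cholesterol, 970 and 1022 in fed deprived worms, and 466 and 343 in fasted deprived worms. All fasted arrays were below all fed ones. It fell with fasting by 2.21 with cholesterol (-2.21 ± 0.15, adjusted p = 0.000405) and by 1.31 without it (-1.31 ± 0.15, adjusted p = 0.00462), both of which held without each array in turn. Its interaction did not pass (0.89 ± 0.21, adjusted p = 0.376). A second, dimmer acs-1 probe set changed by -2.49 and -1.23 on fasting, and there both the interaction (1.26 ± 0.15, adjusted p = 0.0482) and deprivation in fasted worms (0.83 ± 0.10, adjusted p = 0.0147, against 0.61 ± 0.15 and 0.145 for the brighter set) passed. The elongase genes elo-5 and elo-6 fell with deprivation on average (-0.56 ± 0.11, adjusted p = 0.0412, and -0.74 ± 0.15, adjusted p = 0.0409). Each of these calls was lost in 7 of the 8 fits that left out an array, and with a pseudocount of 16 (limma adjusted p = 0.0621 and 0.0699).

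Of the genes that work on ceramide and its products, asah-2, named as a second ceramidase gene, fell with fasting in deprived worms. Its intensity was 354 and 431 in fed worms given cholesterol, 290 and 266 in fasted worms given cholesterol, 640 and 543 in fed deprived worms, and 145 and 199 in fasted deprived worms. As for asah-1, its lowest arrays were the fasted deprived ones. Its highest arrays were the fed deprived ones. For asah-1 the fed deprived group also had the highest mean log2 value, 8.39 against 8.23 in fed worms given cholesterol. The highest single asah-1 array was, however, a fed one given cholesterol. The fall of asah-2 was -1.79 ± 0.18 (adjusted p = 0.00255) in deprived worms, while the value was -0.49 ± 0.18 (adjusted p = 0.156) in worms given cholesterol, and the average fasting effect of -1.14 ± 0.13 (adjusted p = 0.00202) held without each array. Its deprivation values were 0.59 ± 0.18 (adjusted p = 0.205) in fed worms and -0.70 ± 0.18 (adjusted p = 0.163) in fasted worms. The sphingosine-1-phosphate lyase gene spl-1 fell with fasting on average (-0.55 ± 0.09, adjusted p = 0.0102) and the sphingomyelin synthase gene sms-2 rose (0.68 ± 0.11, adjusted p = 0.0112), both also without each array in turn. In single contrasts spl-1 fell with fasting in worms given cholesterol (-0.61 ± 0.13, adjusted p = 0.0407) and sms-2 rose in deprived worms (0.84 ± 0.16, adjusted p = 0.0402). These calls were lost in 6 and 8 of the 8 fits without an array. The spl-1 call was also lost with cyclic loess, the bright-set shift, the 2 groups alone and trended robust priors (limma adjusted p up to 0.0882). The sms-2 call was also lost with cyclic loess, a pseudocount of 16, the 2 groups alone and the median over probe sets (limma adjusted p up to 0.14). On average fasting, a dimmer sms-2 probe set changed by 0.57 ± 0.19 (adjusted p = 0.105).

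For 2 further list genes a dimmer probe set passed where the brightest did not. For the saposin gene spp-10 it fell on average fasting (-1.46 ± 0.11, adjusted p = 0.000316), against -0.02 ± 0.13 (adjusted p = 0.953) for the brightest set. Another spp-10 set, with a mean log2 signal of 12.16, changed by -0.05 ± 0.13 (adjusted p = 0.862). The set that fell was the dimmest, at 10.48. For ttm-5, a dihydroceramide desaturase homologue, the dimmer set fell on average fasting (-0.79 ± 0.09, adjusted p = 0.00218), against -0.59 ± 0.16 (adjusted p = 0.0617) for the brightest. The dimmer ttm-5 set rose on average deprivation (0.56 ± 0.09, adjusted p = 0.0195), against 0.34 ± 0.16 (adjusted p = 0.363). The dimmest spp-10 set and the dimmer ttm-5 set also fell in each simple fasting contrast, where the brightest sets did not pass. With cholesterol the changes were -1.03 ± 0.16 (limma adjusted p = 0.0129) for spp-10 and -0.79 ± 0.13 (limma adjusted p = 0.0158) for ttm-5. Without cholesterol they were -1.90 ± 0.16 (limma adjusted p = 0.00109) and -0.79 ± 0.13 (limma adjusted p = 0.0214). The counts above rest on the brightest sets.

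The Niemann-Pick C homologue genes ncr-1 and ncr-2, which move sterols in lysosomes, rose with fasting on average (0.40 ± 0.09, adjusted p = 0.0353, and 0.51 ± 0.08, adjusted p = 0.0105), and ncr-1 also rose with deprivation (0.52 ± 0.09, adjusted p = 0.0275). The ncr-2 call held without each array, whereas the ncr-1 calls were lost in 7 and 6 of 8 such fits. The ncr-1 fasting call was also lost with cyclic loess and with trended robust priors (limma adjusted p up to 0.0741). The glycosidase gene gana-1 fell with deprivation (-0.58 ± 0.11, adjusted p = 0.0354). On average fasting, T27F6.6 fell (-0.37 ± 0.09, adjusted p = 0.0353) and let-767 rose (0.34 ± 0.09, adjusted p = 0.0484). These 3 were lost in 7, 7 and 8 of the 8 fits without an array. The gana-1 call was also lost with a pseudocount of 16 (limma adjusted p = 0.0525). The T27F6.6 call was also lost after the bright-set shift and with trended robust priors (limma adjusted p up to 0.0867). For let-767, cyclic loess, leaving out the dimmest 40%, a pseudocount of 0 and trended robust priors each ended the call (limma adjusted p up to 0.0982).

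**Figure D3:**
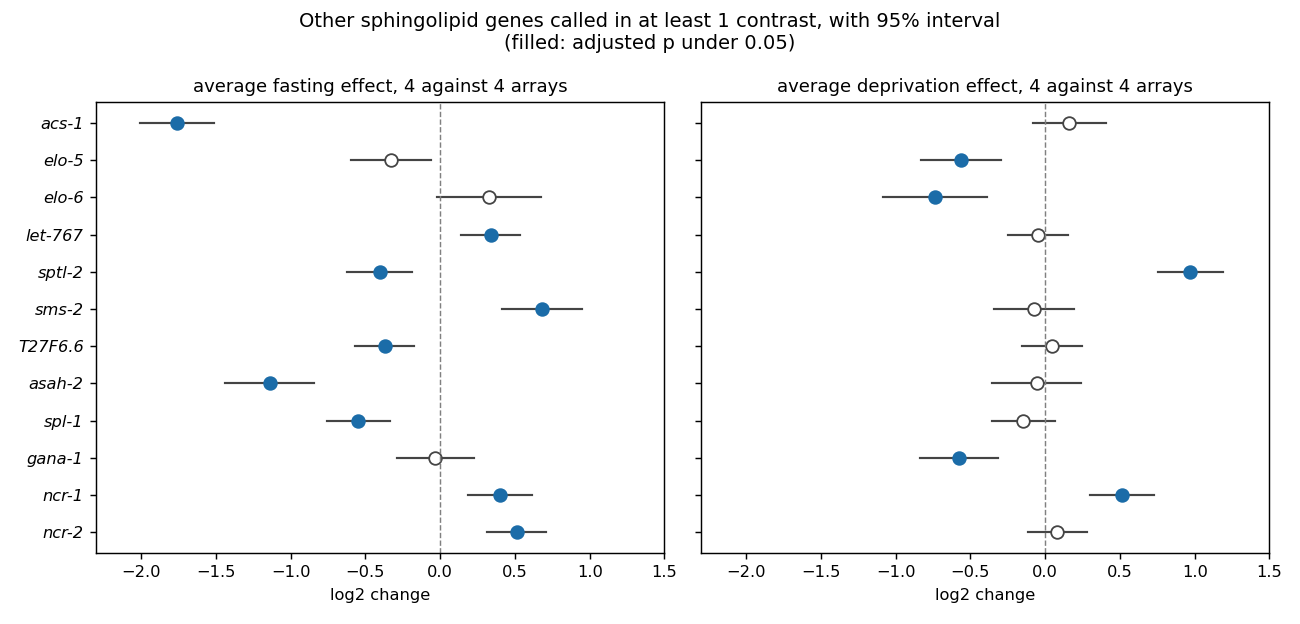
Average fasting effect (left) and average deprivation effect (right) of the 12 genes of the wider list, ncr-1 and ncr-2 among them, that passed in at least 1 contrast. Points are log2 changes with their 95% intervals, filled where the adjusted p is under 0.05. On the left acs-1 and asah-2 lie lowest, at -1.76 and -1.14, and on the right sptl-2 lies highest, at 0.97.

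For each enzyme gene that passed in some contrast, the 3 most similar profiles among 12954 other genes were taken by Pearson correlation over the 8 arrays. For asah-1 they were the C-type lectin gene clec-65 (r = 0.9895), the saposin-like gene spp-8 (r = 0.9879) and the aspartyl protease gene asp-3 (r = 0.9654). For spp-8 the intensity was 744 and 663 in fed worms given cholesterol, 710 and 486 in fasted worms given cholesterol, 955 and 993 in fed deprived worms, and 145 and 192 in fasted deprived worms. For asp-3 the fasted deprived arrays were at 722 and 868 and the other 6 arrays between 4007 and 5943. Like asah-1, all 3 had both fasted deprived arrays below every other array.

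The genes nearest asm-2 were Y49E10.16 (r = 0.9838), the lysosomal lipase gene lipl-1 (r = 0.9702) and C24B9.3 (r = 0.9643). For lipl-1 the intensity was 346 and 359 in fed worms given cholesterol, 532 and 281 in fasted worms given cholesterol, 185 and 251 in fed deprived worms, and 24.2 and 38.9 in fasted deprived worms. As with asm-2, its undeprived arrays were all above its deprived ones and the fasted deprived ones were lowest. Those nearest asm-3 were EGAP9.3 (r = 0.9626), scl-12 (r = 0.9602) and D2045.9 (r = 0.9566), all dim, with intensities between 20.5 and 61.9. Correlations picked as the highest of so many candidates carry no test.

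**Figure D4:**
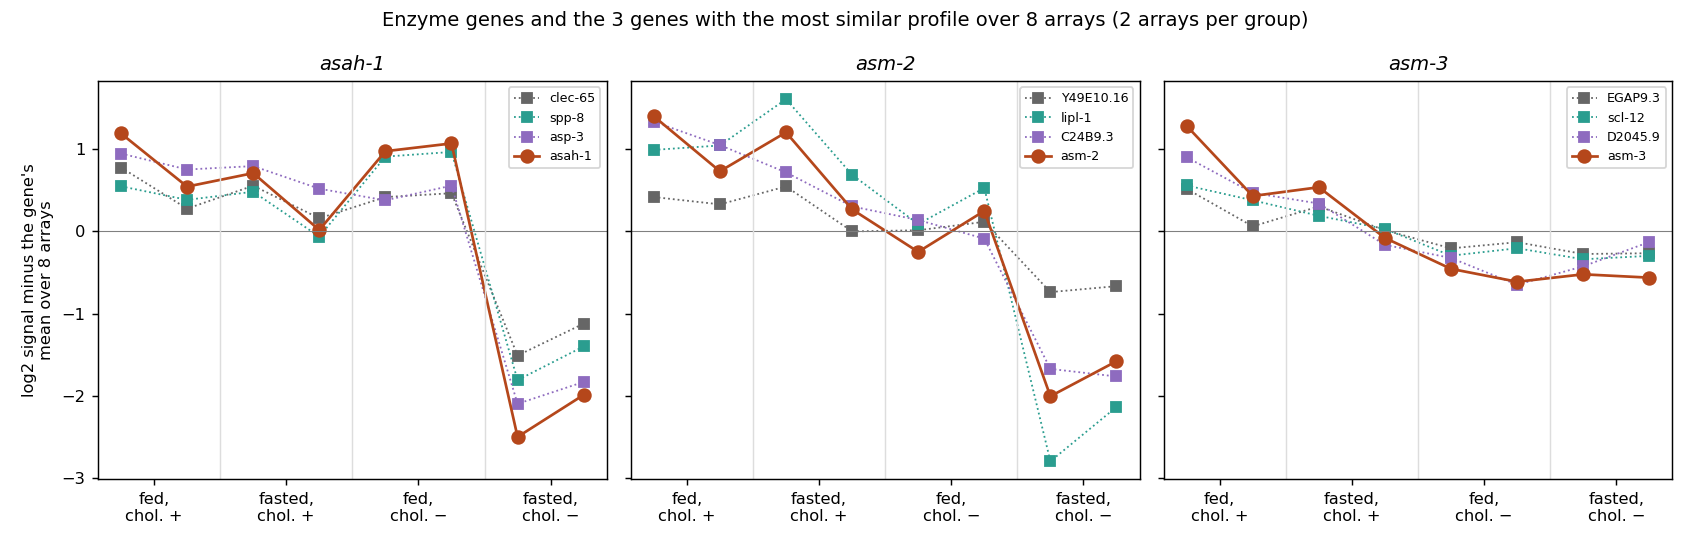
Profiles of asah-1, asm-2 and asm-3 (circles, solid line) with their 3 most similar genes each (squares, dotted lines), as log2 signal minus the gene's own mean, over the 8 arrays in group order. In the first 2 panels every gene is lowest on the 2 fasted deprived arrays, and in the third the deprived arrays of asm-3 lie below its undeprived ones.

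Markers of tissues moved with feeding and deprivation too. The 11 intestinal genes were all measured, none with a group mean under 4.69. With fasting in worms given cholesterol 5 fell and 1 rose, where 5.16% of all probe sets were called. With fasting in deprived worms 5 fell, where 2.91% were called. The medians were -1.10 and -0.91. The summed intensity of the list was 24310 to 25020 in fed worms given cholesterol, 9114 to 10990 in fasted worms given cholesterol, 20010 to 21600 in fed deprived worms, and 7651 to 9129 in fasted deprived worms. With deprivation of fed worms the sum was lower, but the median change was 0.30, with 7 genes above 0 and 4 below. In that contrast 1 rose and 0 fell, where 1.21% of all probe sets were called. Between the fasted groups, where asah-1 and asm-2 changed by -2.60 and -2.52, the intestinal median was -0.08, with 1 gene up and 1 down (1.10% of all probe sets called). Between the fed and the fasted worms given cholesterol, where the intestinal sum was also lower on fasting, asah-1 and asm-2 did not pass. The intestinal sum was lowest in fasted deprived worms, though its range there overlapped that of fasted worms given cholesterol. The part of intestinal content in the asah-1 and asm-2 values was not tested.

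The 7 body wall muscle genes summed to 4649 to 5447 in fed worms given cholesterol, 2948 to 3000 in fasted worms given cholesterol, 3227 to 3747 in fed deprived worms, and 1314 to 1513 in fasted deprived worms. In fasted worms 3 of the 7 fell with deprivation (median -0.88), where 1.10% of all probe sets were called. Their lowest group was that of asah-1 and asm-2, and the part of tissue content in those falls was not tested. Medians of the 10 oocyte and germline genes, the 8 zygotic embryo genes, the 6 epidermal genes and the 8 neuronal genes lay between -0.14 and 0.12 for deprivation of fasted worms, with 0 called in each (limma; 0, 4, 0 and 2 at an unadjusted p under 0.05). The 4 measured yolk protein genes of 5 listed, which mark adult hermaphrodites, were bright in every group. Their sums were 69990 to 72760 in fed worms given cholesterol, 58940 to 59670 in fasted worms given cholesterol, 62780 to 62790 in fed deprived worms, and 48370 to 50320 in fasted deprived worms, again the lowest group. Of these 4, vit-4 (-0.47 ± 0.09, adjusted p = 0.044) and vit-5 (-0.51 ± 0.09, adjusted p = 0.0334) fell with fasting in deprived worms (2.91% of all probe sets called). Both also fell in the averages (10.6% called for fasting, 4.10% for deprivation). Neither vit-2 nor vit-6 passed in these contrasts. Their changes were -0.07 and -0.20 on fasting of deprived worms, and 0.00 and -0.03 on average deprivation. The part of yolk protein genes in the other values was not tested.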

How the data were processed

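RNA of 8 whole-worm samples was hybridised to Affymetrix arrays, 100 ng a sample by the labels' protocols. The authors deposited an intensity for each probe set and array, normalised with RMA per the submitters' processing notes (version not given in the sources used here). The scale is linear and the medians of the arrays lay between 66.7 and 70.9, and RMA equalises distributions, so differences in total RNA are not visible. Log2 values of replicate arrays had r = 0.992 to 0.994. The number of arrays limits the precision.

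Of 22625 probe sets, 77 controls were left out. The platform annotation gave 1 symbol to 20766, several to 887 and none to 895, and 20701 of the first matched RefSeq (WBcel235) by gene number, used for names alone. Where a gene had several probe sets, the brightest on average was used. Log2(signal + 1) was fitted with limma 3.58.1 in R 4.3.3, 1 mean per group over all 8 arrays (4 residual and 3.37 prior degrees of freedom), with two-sided tests. The plots were made in Python 3.11.15 using matplotlib 3.10.9.

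The named genes were the 10 enzymes, the genes of the wider list that passed in some contrast, and the 3 most similar profiles. Members and lists were chosen with earlier results of these data known. Arrays with the same replicate number deviated together from their group means in all 6 pairs of groups (r = 0.218 to 0.53 across probe sets). No label names a shared day. The main fit, which gave the calls and standard errors, did not use the replicate number. It entered as a block in an alternative fit alone. Alternatives were the replicate block, cyclic loess, equal medians of the brightest probe sets (the bright-set shift), a fit without the dimmest 40% or without _s_at and _x_at sets, pseudocounts of 16 and 0, fits of the compared groups alone, medians over probe sets, trended robust priors, and leaving out each array.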

Additional observations from a re-analysis of the deposited data

How the results depend on the processing

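No called change of the 10 genes turned its direction. Of 1188 alternative values of their 70 changes, 1143 kept their side of the threshold, 38 lost a call and 7 gained one, and 2 of the 9 calls, both of asah-1, held under every alternative run. With the replicate block the number of genes called became 1 for fasting with cholesterol (0 without the block), 1 for deprivation in fed worms (0) and 1 for the interaction (0), besides hyl-1 on average fasting; the block changed no other call of the 10. Trended robust priors gave 1 for deprivation in fed worms and 1 for the interaction. Cyclic loess gave 1 for fasting without cholesterol. A pseudocount of 16 gave 1 in each of fasting without cholesterol, deprivation in fasted worms, average fasting and average deprivation. Leaving out _s_at and _x_at sets also gave 1 in each of those 4, since asm-2, asm-3, hyl-1 and cgt-3 were then not in the fit. A fit of the 2 groups alone gave 0 for deprivation in fasted worms, with fewer arrays. The cause of the other changes was not tested.

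Leaving out an array in turn, with the lone array of its group assumed to vary like the others, gave 1 to 2 called genes for fasting without cholesterol, 0 to 2 for deprivation in fasted worms, 1 to 2 for average fasting, 0 to 3 for average deprivation, and 0 for fasting with cholesterol, for deprivation in fed worms and for the interaction. The bright-set shift moved the median of all probe sets by -0.08 to 0.09 and changed no call of the 10 genes. Because each enzyme gene had a single probe set, the median over probe sets changed only the number of tests. Signals of asm-3 in deprived worms and of asm-2 in fasted deprived worms were near the bottom of the scale, where changes can be compressed.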
